A study of Mus musculus with 24 samples.

Results

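The genes described here are those that carry out and control glycolysis, gluconeogenesis and glycogen turnover in the liver. They were taken from a list of 38 genes named by function, though with earlier results of these data known. Of the 38, 35 were measured, among 18193 genes in all. The probe annotation used here names no probe set for the other 3, Gpi1, Pfkfb1 and Eno1. Liver RNA was measured on 24 arrays, each from 1 male C57BL6/J mouse, with 8 arrays in each of 3 groups. The mice of the siKeap1-1 and siKeap1-2 groups received an siRNA against Keap1, and those of the siControl group a non-silencing siRNA. All 3 siRNAs carried chemical modifications, were packed in lipid nanoparticles that mainly reach hepatocytes, and were injected into the tail vein once weekly at 1 mg/kg for 7 weeks. All mice were 8 weeks old at the start and ate a Western diet (a high-fat diet with 6% sucrose in the drinking water), so that no chow-fed or untreated group stands beside them. The methods took fed and fasted mice in equal numbers in every group, the labels do not tell these apart, and no array was assigned to a feeding state here.

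Keap1 holds the transcription factor Nrf2 in the cytoplasm and marks it for degradation, and less Keap1 therefore leaves more Nrf2 to act on its target genes. The liver takes up glucose after a meal and either stores it as glycogen or burns it to pyruvate by glycolysis. Between meals the phosphorylase system breaks the glycogen down again, and gluconeogenesis makes new glucose from lactate, amino acids and glycerol. Many of these genes are switched by insulin, glucagon and glucose, so their mRNA levels can follow the time since the last meal.

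Keap1 averaged 7.50 ± 0.22 with siKeap1-1 and 8.26 ± 0.21 with siKeap1-2, against 9.63 ± 0.27 with siControl (log2 signal, SD, n = 8 each). The log2 differences were -2.13 and -1.36, and in the exact permutation test (two-sided) each had p = 0.000155, the smallest that 8 against 8 arrays can give. Nqo1, a classic Nrf2 target, was higher by 2.22 and 1.91 on the log2 scale. The hepatocyte markers averaged between 14.06 and 14.32 on every array, the skeletal muscle markers between 4.23 and 4.74 and the adipocyte markers between 3.01 and 3.82. The macrophage markers averaged between 8.80 and 10.54 and the stellate cell markers between 8.57 and 9.91, a wider range over the arrays. Of all marker genes of other cell types only Sox9 (cholangiocytes) passed the test in either comparison, higher by 0.87 and 0.96. Krt19 and Krt7, the other cholangiocyte markers, differed by -0.36 to -0.01. A control probe set for 18S ribosomal RNA did split the arrays. Its log2 signal was 10.17 to 10.44 on siKeap1-1 replicates 1 to 3, 11.17 to 11.43 on siKeap1-1 replicates 4 to 8 and 10.45 to 11.12 on the siKeap1-2 arrays. On siControl replicates 1 to 3 it was 10.34 to 10.77, and on siControl replicates 4 to 8 it was 8.86 to 9.54. Its mean was higher by 1.23 with siKeap1-1 and by 1.18 with siKeap1-2 (exact permutation p = 0.00435 and 0.00155), and the fits with the 18S signal as a covariate and with each subset of siControl arrays are given below. Its part in the differences was not tested further. In whole liver, fewer cells of a type and less RNA per cell cannot be told apart.

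With siKeap1-1, 5 of the 35 genes rose and 5 fell, against 4.96% and 4.84% of all genes. The 5 that fell were 2 or 3 without siKeap1-1 replicate 1, 3 or 5 or siControl replicate 3, 7 or 8. The genes that rose were Phkb and Gbe1 (log2 differences 0.63 and 0.62), Ugp2 (0.38), Aldoa (0.26) and Pgm1 (0.16), of which Phkb serves glycogen breakdown, Aldoa glycolysis and the other 3 glycogen synthesis. Those that fell were Ppargc1a (-0.56), Gys2 (-0.41), Ldha (-0.26), Creb1 (-0.24) and Slc2a2 (-0.18). These 10 genes are 28.6% of the 35, and the same fit (limma, Benjamini-Hochberg adjusted p under 0.05) called 9.81% of all genes. The median log2 difference was -0.05 over the 35 genes and 0.01 over all genes, and the median absolute one was 0.16 over the 35 genes and 0.11 over all genes. With siKeap1-2, Aldoa, Ugp2 and Phkb rose and no gene of the 35 fell, which is 8.57% of the 35 against 6.99% of all genes called in that comparison (2.97% higher and 4.02% lower). Without siKeap1-2 replicate 5 or siControl replicate 1, 1 gene was higher with siKeap1-2. Without adjustment (p under 0.05) the siKeap1-1 counts were 6 higher and 10 lower, and those of siKeap1-2 were 4 higher and 5 lower, and this threshold took in 24.5% and 21.9% of all genes. A fold change over 2 with an unmoderated p under 0.01 was met by 0 of the 35 genes with either siRNA, and by 0.72% and 0.649% of all genes. The median absolute log2 difference with siKeap1-2 was 0.11 over the 35 genes and 0.10 over all genes. Both comparisons use the same 8 control arrays, so their shared members are not independent of each other.

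**Figure D1:**
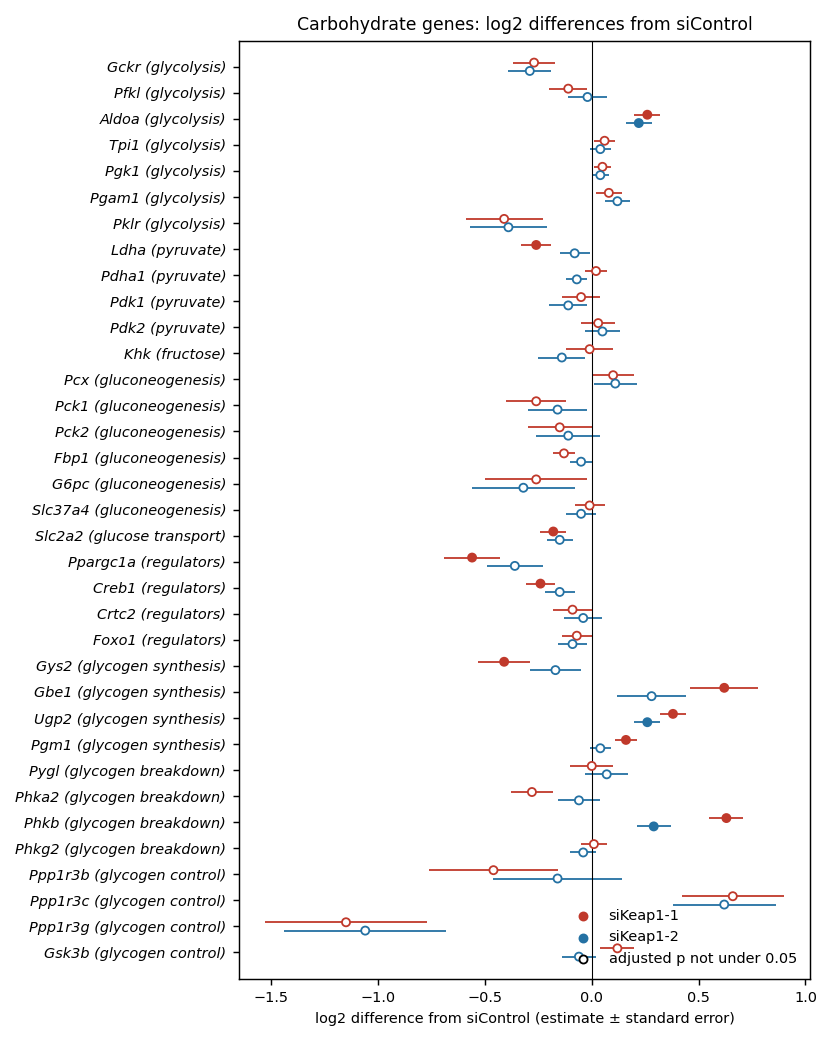
Log2 difference from siControl (horizontal axis) of the 35 genes, by role, for siKeap1-1 (red) and siKeap1-2 (blue), 8 arrays a group; points are estimates, bars standard errors, and filled points have an adjusted p under 0.05. The differences run between -1.15 (Ppp1r3g) and 0.66 (Ppp1r3c), both of them open points at siKeap1-1, and 10 red and 3 blue points are filled.

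The counts depended on which control arrays were used. When siControl replicates 1 to 3 alone served as controls, siKeap1-1 gave 3 higher and 1 lower (3.44% of all genes called) and siKeap1-2 gave 2 higher and 0 lower (1.5%). When siControl replicates 4 to 8 alone served, siKeap1-1 gave 3 higher and 4 lower (10.1%) and siKeap1-2 gave 1 higher and 1 lower (9.29%). Adding the 18S signal as a covariate, siKeap1-1 gave 4 higher and 2 lower (2.90%) and siKeap1-2 gave 0 higher and 1 lower (1.21%). With siKeap1-1, Ugp2 and Phkb were called in all 3 of these fits, Aldoa was lost with replicates 4 to 8, and Gbe1, Ldha and Ppargc1a were lost with replicates 1 to 3 and with the covariate. Slc2a2 was lost with either subset of controls, and Pgm1, Gys2 and Creb1 were lost in all 3 fits. With siKeap1-2 no gene was called in all 3, since Ugp2 was called only with replicates 4 to 8 and Aldoa and Phkb only with replicates 1 to 3. The subsets hold fewer arrays than the full set of controls. The 18S signal itself differed between the groups, so it is in part confounded with the siRNA and makes each estimate less precise. A call lost in these fits is therefore not by itself a smaller difference.

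Nrf2 binds DNA at the antioxidant response element, and the core of this element was searched for in the promoters together with the cAMP response element that Creb1 binds and the forkhead site that Foxo1 binds. RefSeq promoter sequences (build GRCm38.p6) were at hand for 32 of the 35 genes and for 9 of the 10 genes called, with no window for Gys2. The 250 bases before the start site are printed for the 3 genes that rose with both siRNAs and for Ppp1r3g, which had the largest difference. They are also printed for Ldha, the member whose window holds the searched letters of the cAMP response element. For Aldoa they belong to the second of its 3 start sites, and for Ugp2 and Ldha to the first of 2. They read 5′ to 3′ along the gene, and capitals mark a motif match.
Ugp2 (chr11:21371268-21371517, minus strand): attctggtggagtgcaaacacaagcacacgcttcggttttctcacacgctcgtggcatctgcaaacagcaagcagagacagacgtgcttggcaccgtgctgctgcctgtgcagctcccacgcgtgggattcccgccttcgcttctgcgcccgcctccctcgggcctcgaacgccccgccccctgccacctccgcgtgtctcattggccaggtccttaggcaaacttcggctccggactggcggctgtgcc
Phkb (chr8:85840738-85840987, plus strand): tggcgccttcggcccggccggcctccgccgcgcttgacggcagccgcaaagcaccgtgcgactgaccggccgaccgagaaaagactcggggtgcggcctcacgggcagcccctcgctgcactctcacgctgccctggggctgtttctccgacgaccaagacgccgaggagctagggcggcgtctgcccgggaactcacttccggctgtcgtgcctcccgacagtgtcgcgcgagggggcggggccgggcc
Aldoa (chr7:126799255-126799504, minus strand): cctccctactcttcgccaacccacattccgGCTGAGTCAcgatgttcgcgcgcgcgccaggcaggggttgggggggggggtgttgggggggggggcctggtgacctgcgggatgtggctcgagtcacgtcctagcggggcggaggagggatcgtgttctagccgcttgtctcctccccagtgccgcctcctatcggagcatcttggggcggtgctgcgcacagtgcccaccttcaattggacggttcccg
Ppp1r3g (chr13:35967656-35967905, plus strand): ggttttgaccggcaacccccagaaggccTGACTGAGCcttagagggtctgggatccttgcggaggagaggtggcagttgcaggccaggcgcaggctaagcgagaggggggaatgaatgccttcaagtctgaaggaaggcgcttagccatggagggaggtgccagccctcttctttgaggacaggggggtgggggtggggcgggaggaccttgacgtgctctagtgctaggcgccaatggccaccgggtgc
Ldha (chr7:46845554-46845803, plus strand): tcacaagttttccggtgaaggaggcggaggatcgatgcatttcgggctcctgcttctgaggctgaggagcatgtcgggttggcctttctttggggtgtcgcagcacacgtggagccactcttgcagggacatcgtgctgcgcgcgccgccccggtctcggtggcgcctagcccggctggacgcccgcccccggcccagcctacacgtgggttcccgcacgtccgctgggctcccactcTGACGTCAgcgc

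The core TGACNNNGC, on either strand and over 250 bases before and 50 bases after a start site, was found at 14.0% of all genes and at 5 of the 32 members (15.6%). Of the 3 genes that rose with both siRNAs, Aldoa holds it, on the opposite strand and beginning at base -220 of its second start site, whereas these letters are not in the windows of Ugp2 and Phkb. The Ppp1r3g window holds it at base -222. The other 3 members with a match were Pklr, Fbp1 and G6pc, none of which passed the test in either comparison with siControl. The cAMP response element TGACGTCA, which reads the same on both strands, was found at 2.03% of all genes and, among the members, only at Ldha (base -12). The forkhead site GTAAACA was found at 4.05% of all genes and at 0 of the 32 members. No printed window holds over 1 match, so none overlap, and a match is a run of letters, not a measured binding site. Only these letters were sought. Variant forms of the sites were not counted, and a window without a match may still hold a site.

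Among the genes of glycogen synthesis, 3 of 4 rose with siKeap1-1 and 1 fell, against 4.96% and 4.84% of all genes. Of these, only Ugp2 kept its siKeap1-1 call with either subset of controls and with the 18S covariate. Ugp2 makes UDP-glucose, the glucose donor for glycogen and for glucuronic acid. Its signal lay between 13.92 and 14.13 with siKeap1-1 (median 14.08) and between 13.79 and 14.04 with siKeap1-2 (median 13.94), against 13.43 to 13.81 with siControl (median 13.71). Every siKeap1-1 array was above every siControl array, and with siKeap1-2 only replicate 7 was below the highest control. Groups without overlap, in either direction, were seen for 1.71% of all genes with siKeap1-1 and for 1.41% with siKeap1-2. The differences were 0.38 ± 0.06 with siKeap1-1 and 0.26 ± 0.06 with siKeap1-2 (log2 ± SE, limma adjusted p = 8.38e-05 and 0.00536), a 1.30-fold and a 1.20-fold level. The siKeap1-2 call was lost against siControl replicates 1 to 3 alone (0.20, adjusted p = 0.217) and with the 18S covariate (0.25, 0.160). All 5 Ugp2 probe sets were higher with both siRNAs, by 0.26 to 0.84 with siKeap1-1 and by 0.17 to 0.54 with siKeap1-2.

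Gbe1 places the branches in the glycogen molecule, and in mouse skeletal muscle it has been described as an Nrf2 target. It lay between 11.39 and 12.21 with siKeap1-1 (median 11.57) and between 10.89 and 11.73 with siKeap1-2 (median 11.43), against 10.52 to 11.42 with siControl (median 11.32). All siKeap1-1 arrays but replicate 7 were above the highest control, while siControl replicates 2, 4 and 5, at 10.52, 10.64 and 10.73, were well below the other controls at 11.32 to 11.42. The difference was 0.62 ± 0.16 with siKeap1-1 (adjusted p = 0.0154, 1.53-fold), and with siKeap1-2 it was 0.28 ± 0.16 and did not pass the test (adjusted p = 0.317). The siKeap1-1 call was lost against siControl replicates 1 to 3 alone (0.60, adjusted p = 0.151) and with the 18S covariate (0.68, 0.117).

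Pgm1 interconverts glucose 1-phosphate and glucose 6-phosphate. Its signal ran between 12.41 and 12.66 with siKeap1-1 (median 12.54) and between 12.34 and 12.54 with siKeap1-2 (median 12.43), against 12.25 to 12.49 with siControl (median 12.43). The siKeap1-1 and siControl arrays overlapped, and the difference of 0.16 ± 0.05 had an adjusted p of 0.0482, which went above 0.05 on leaving out any of 19 of the 24 arrays (all but siKeap1-1 replicate 3, siKeap1-2 replicates 5 and 7 and siControl replicates 1 and 3). With siKeap1-2 the difference was 0.04 (adjusted p = 0.725). Gys2, the liver glycogen synthase that lengthens the chains, went the other way. It lay between 12.45 and 13.11 with siKeap1-1 (median 12.87) and between 12.52 and 13.51 with siKeap1-2 (median 13.02), against 13.02 to 13.43 with siControl (median 13.27). Of the siKeap1-1 arrays, replicates 4 and 7 reached into the control range, and the difference was -0.41 ± 0.12 (adjusted p = 0.0323). With siKeap1-2 it was -0.17 (adjusted p = 0.444), and the siKeap1-1 call was lost without any of siKeap1-1 replicates 1, 3 and 5 or siControl replicates 2, 3, 7 and 8 (adjusted p up to 0.0687).

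Of the 4 genes of glycogen breakdown, Phkb alone passed the test, where 9.81% of all genes did with siKeap1-1 and 6.99% with siKeap1-2. Phkb is the regulatory beta subunit of phosphorylase kinase, the enzyme that switches glycogen phosphorylase on, and 1 probe set reads it. Its signals were 10.08, 9.91, 9.82, 9.89, 9.96, 10.08, 9.95 and 9.84 on siKeap1-1 replicates 1 to 8 and 9.39, 9.61, 9.65, 9.73, 9.80, 9.59, 9.59 and 9.48 on siKeap1-2 replicates 1 to 8, against 8.97, 9.13, 9.42, 9.56, 9.62, 9.32, 9.16 and 9.31 on siControl replicates 1 to 8. The siKeap1-1 arrays lay above all others, and the siKeap1-2 arrays overlapped with the upper siControl arrays. The difference was 0.63 ± 0.08 with siKeap1-1 (adjusted p = 9.88e-06, 1.55-fold) and 0.29 ± 0.08 with siKeap1-2 (adjusted p = 0.0278, 1.23-fold). The siKeap1-2 call was lost without siKeap1-2 replicate 5 or siControl replicate 1 or 7 (adjusted p up to 0.0607), against siControl replicates 4 to 8 alone (0.21, adjusted p = 0.115) and with the 18S covariate (0.41, 0.0634). The other subunits of the liver kinase, Phka2 and Phkg2, did not pass the test. Phka2, the liver alpha subunit, differed by -0.28 and -0.06 (adjusted p = 0.0664 and 0.766), and Phkg2, the catalytic subunit of liver, by 0.01 and -0.04. Pygl, the liver glycogen phosphorylase itself, differed by 0.00 with siKeap1-1 (95% interval -0.21 to 0.21) and by 0.07 with siKeap1-2 (-0.14 to 0.28).

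**Figure D2:**
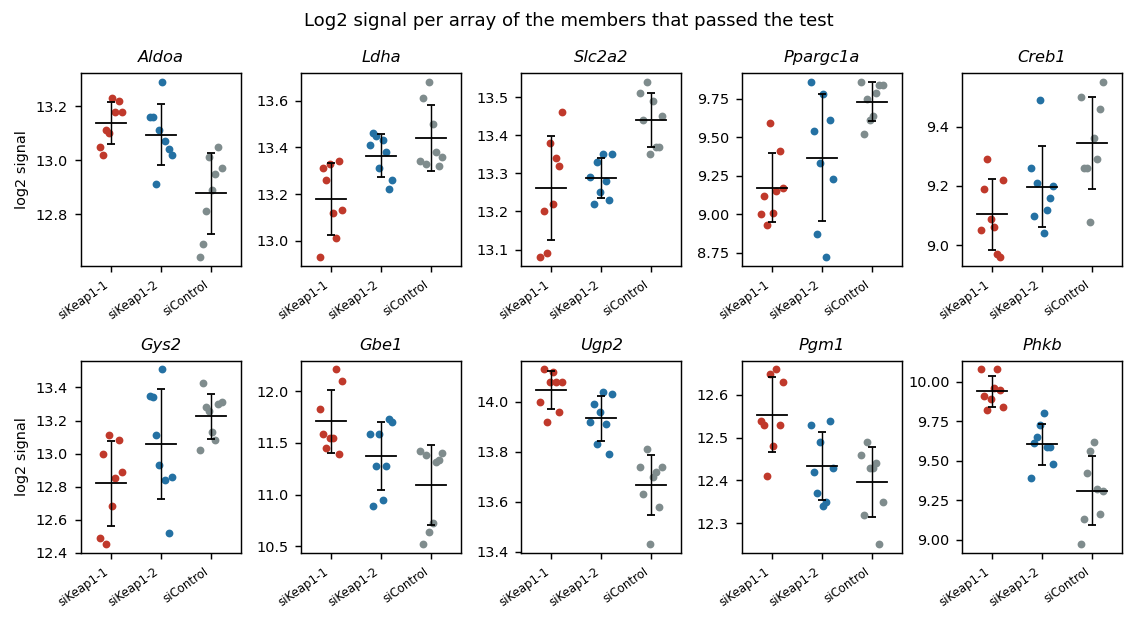
Log2 signal per array (vertical axis, its own scale in each panel) of the 10 genes that passed the test, with 8 arrays each of siKeap1-1, siKeap1-2 and siControl; horizontal lines are means and bars SDs. The groups siKeap1-1 and siControl are apart in the panels of Ugp2 and Phkb and overlap in the other 8.

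The largest differences of the whole group were those of Ppp1r3g and Ppp1r3c, regulatory subunits that bring protein phosphatase 1 to glycogen. By its brightest probe set, neither passed the test in either comparison. Ppp1r3g, a subunit of liver glycogen particles, lay between 5.33 and 7.23 with siKeap1-1 (median 6.42) and between 5.44 and 8.10 with siKeap1-2 (median 6.35), against 6.54 to 8.86 with siControl (median 7.19). The groups overlapped, siControl replicates 2, 3 and 7 were the highest of all (8.86, 8.54 and 8.20) and siKeap1-2 replicate 5 reached 8.10. The difference was -1.15 ± 0.38 with siKeap1-1 and -1.06 ± 0.38 with siKeap1-2 (adjusted p = 0.0538 and 0.0904), a 0.452-fold and a 0.480-fold level. The size turned on the controls. It was -1.88 and -1.79 against siControl replicates 1 to 3 (adjusted p = 0.0310 and 0.0650), and -0.71 and -0.62 against siControl replicates 4 to 8 (0.280 and 0.354). With the 18S covariate it was -2.03 and -1.90, and both passed the test (adjusted p = 0.0139 and 0.0329). The siKeap1-1 difference also passed on leaving out siKeap1-1 replicate 7, siKeap1-2 replicate 5 or siControl replicate 4, 5 or 6 (adjusted p 0.0328 to 0.0448), and the siKeap1-2 difference without siKeap1-2 replicate 5 (0.0281).

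Ppp1r3c, another such subunit, was at 11.69, 11.51, 11.80, 11.68, 11.09, 11.74, 9.98 and 11.61 on siKeap1-1 replicates 1 to 8 and between 10.57 and 11.90 with siKeap1-2 (median 11.33), against 10.23 to 11.42 with siControl (median 10.56). Replicate 7 of siKeap1-1 was below every control array, whereas 6 of the other 7 were above the highest control. The differences were 0.66 ± 0.24 and 0.62 ± 0.24 (adjusted p = 0.0805 and 0.116), and without siKeap1-1 replicate 7 both passed the test (adjusted p = 0.00627 and 0.0468). The second Ppp1r3c probe set, dim at a mean of 4.95, differed by 0.60 and 0.55. It passed the test with siKeap1-1 only (limma p adjusted over all probe sets 0.0374 and 0.071). Ppp1r3b, the main hepatic subunit of this kind, ran between 10.71 and 12.58 with siKeap1-1 (median 11.95) and between 11.35 and 12.95 with siKeap1-2 (median 12.00), against 11.05 to 13.05 with siControl (median 12.42). Its groups overlapped over most of their range, with differences of -0.46 ± 0.30 and -0.16 ± 0.30 (adjusted p = 0.372 and 0.809). For Gsk3b, a kinase that inhibits glycogen synthase, the brightest probe set differed by 0.12 and -0.06. A dimmer Gsk3b probe set was higher by 0.44 with siKeap1-1 and another differed by -0.55, so the array gave no single direction for this gene.

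**Figure D3:**
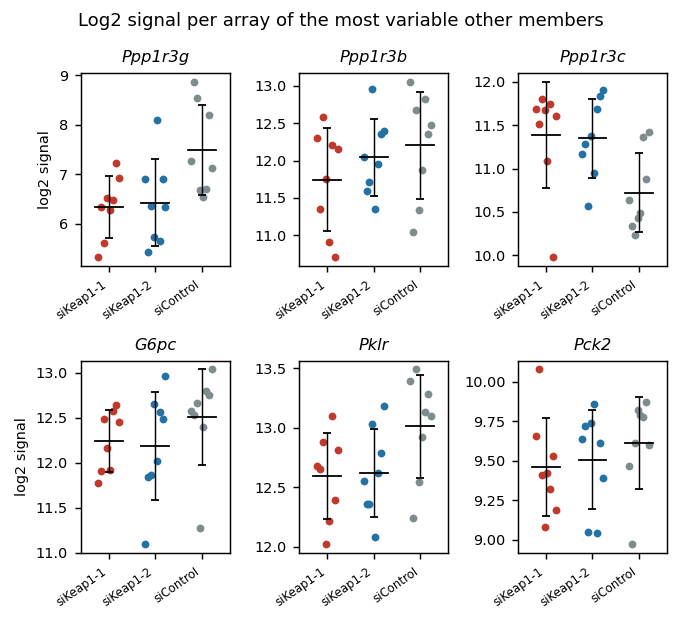
Log2 signal per array (vertical axis, its own scale in each panel) of the 6 genes with the largest spread within groups among those that did not pass the test, with 8 arrays each of siKeap1-1, siKeap1-2 and siControl; lines are means and bars SDs. Single arrays stand apart, such as siKeap1-1 replicate 7 at 9.98 for Ppp1r3c and siControl replicate 4 at 11.27 for G6pc.

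In glycolysis 1 of 7 genes rose with each siRNA, where 4.96% and 2.97% of all genes rose, and it was the same gene. Aldoa, an aldolase that splits fructose 1,6-bisphosphate, lay between 13.02 and 13.23 with siKeap1-1 (median 13.14) and between 12.91 and 13.29 with siKeap1-2 (median 13.09), against 12.64 to 13.05 with siControl (median 12.92). Of the siKeap1-1 arrays, all but replicates 1 and 2 were above the highest control, siControl replicate 7 at 13.05. The differences were 0.26 ± 0.06 and 0.22 ± 0.06 (adjusted p = 0.0109 and 0.0391). All 5 Aldoa probe sets were higher, by 0.22 to 0.51 with siKeap1-1 and by 0.14 to 0.46 with siKeap1-2, and as all are of the kind that can also bind related transcripts, they are not independent readings of 1 gene. The lowest control arrays were siControl replicates 1 to 3 (12.64, 12.69 and 12.81). Against siControl replicates 4 to 8 alone the differences were 0.16 and 0.12 (adjusted p = 0.114 and 0.257), and the siKeap1-2 call was lost without any of siKeap1-2 replicates 1, 2, 4, 5 and 6 or siControl replicates 1, 2, 3 and 5 (adjusted p up to 0.0778).

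Pklr, the liver pyruvate kinase that closes glycolysis, lay between 12.02 and 13.10 with siKeap1-1 (median 12.67) and between 12.08 and 13.18 with siKeap1-2 (median 12.59), against 12.24 to 13.49 with siControl (median 13.11). The groups overlapped, and siControl replicates 2 and 4 were below the other controls. The differences of -0.41 ± 0.18 and -0.39 ± 0.18 did not pass the test (adjusted p = 0.154 and 0.207). Gckr, the protein that holds glucokinase in the nucleus, differed by -0.27 and -0.29 (adjusted p = 0.101 and 0.0983), and without siControl replicate 2, its lowest control at 12.50, it passed the test in both comparisons (0.0189 and 0.0194). Tpi1, Pgk1 and Pgam1, which carry glycolysis on from triose phosphates, differed by 0.04 to 0.12 in the comparisons with siControl, and Pfkl, the liver phosphofructokinase, by -0.11 and -0.02. None of these 4 passed the test.

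At the fate of pyruvate, Ldha, a subunit of lactate dehydrogenase, lay between 12.93 and 13.34 with siKeap1-1 (median 13.19) and between 13.22 and 13.46 with siKeap1-2 (median 13.39), against 13.32 to 13.68 with siControl (median 13.37). All siKeap1-1 arrays but replicates 4 and 7 were below the lowest control. The difference was -0.26 ± 0.07 with siKeap1-1 (adjusted p = 0.0165) and -0.08 ± 0.07 with siKeap1-2 (0.574). The siKeap1-1 call was lost against siControl replicates 1 to 3 alone (-0.25, adjusted p = 0.173) and with the 18S covariate (-0.29, 0.123). Pdha1, of the pyruvate dehydrogenase complex, and the kinases Pdk1 and Pdk2, which switch that complex off, differed by -0.11 to 0.05 and did not pass the test. The dimmest Pdk1 probe set differed by -0.72 and -0.15 (limma p adjusted over all probe sets 0.0637 and 0.783). Khk, which phosphorylates fructose, differed by -0.01 and -0.14 (adjusted p = 0.969 and 0.511).

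None of the 6 genes of gluconeogenesis passed the limma test with either siRNA, where 9.81% and 6.99% of all genes did. Without adjustment only Fbp1 had a p under 0.05 (0.00887 with siKeap1-1). Pck1, the cytosolic phosphoenolpyruvate carboxykinase, differed by -0.26 and -0.16 (adjusted p = 0.276 and 0.552), and its siKeap1-1 values were 13.59 to 13.95 apart from replicate 1 at 12.51. G6pc, the glucose-6-phosphatase that releases glucose, lay between 11.77 and 12.64 with siKeap1-1 (median 12.31) and between 11.09 and 12.97 with siKeap1-2 (median 12.25), against 11.27 to 13.04 with siControl (median 12.62). The G6pc groups overlapped, and the differences were -0.26 (95% interval -0.75 to 0.22) and -0.32 (-0.80 to 0.17). Pck2, the mitochondrial carboxykinase, ran between 9.08 and 10.08 with siKeap1-1 (median 9.42) and between 9.04 and 9.86 with siKeap1-2 (median 9.62), against 8.97 to 9.87 with siControl (median 9.69). These ranges lay over each other, with differences of -0.15 and -0.11 (adjusted p = 0.577 and 0.727). Fbp1, the fructose-1,6-bisphosphatase, differed by -0.13 and -0.05 (adjusted p = 0.0723 and 0.542). Pcx, the pyruvate carboxylase, differed by 0.10 and 0.11, and Slc37a4, which carries glucose 6-phosphate into the endoplasmic reticulum, by -0.01 and -0.05.

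Slc2a2, the GLUT2 transporter through which glucose enters and leaves hepatocytes, lay between 13.08 and 13.46 with siKeap1-1 (median 13.27) and between 13.22 and 13.35 with siKeap1-2 (median 13.28), against 13.35 to 13.54 with siControl (median 13.45). The siKeap1-1 arrays reached into the control range with replicates 4 and 8, and the siKeap1-2 arrays met it at its lowest value. The differences were -0.18 ± 0.06 (adjusted p = 0.0411) and -0.15 ± 0.06 (0.0997), and the siKeap1-1 call was lost without any of siKeap1-1 replicates 1, 2, 3 and 5 or siControl replicates 1, 2, 3, 5 and 8 (adjusted p up to 0.0866).

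Of the 4 regulators, Ppargc1a and Creb1 fell with siKeap1-1, where 4.84% of all genes fell. Ppargc1a, a coactivator that switches on gluconeogenic genes in fasting, was at 9.0, 9.12, 8.93, 9.59, 9.01, 9.15, 9.41 and 9.17 on siKeap1-1 replicates 1 to 8 and at 9.86, 9.54, 8.87, 9.33, 9.78, 8.72, 9.61 and 9.23 on siKeap1-2 replicates 1 to 8, against 9.86, 9.52, 9.75, 9.61, 9.64, 9.79, 9.84 and 9.84 on siControl replicates 1 to 8. Only siKeap1-1 replicate 4 reached the control range, while the siKeap1-2 arrays were spread, 4 of them within that range and 4 below it. The difference was -0.56 ± 0.13 with siKeap1-1 (adjusted p = 0.00845, 0.679-fold) and -0.36 ± 0.13 with siKeap1-2 (adjusted p = 0.104). Of the 5 Ppargc1a probe sets, 4 were lower with both siRNAs and the dimmest was higher by 0.30 and 0.59. With the mean over all 5 the siKeap1-1 difference was -0.30 (adjusted p = 0.142), and the call was also lost against siControl replicates 1 to 3 alone (-0.54, adjusted p = 0.161) and with the 18S covariate (-0.60, 0.0901).

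Creb1, the cAMP-responsive factor downstream of glucagon, lay between 8.96 and 9.29 with siKeap1-1 (median 9.08) and between 9.04 and 9.49 with siKeap1-2 (median 9.18), against 9.08 to 9.55 with siControl (median 9.33). The groups overlapped, and the difference was -0.24 ± 0.07 with siKeap1-1 (adjusted p = 0.0362) and -0.15 ± 0.07 with siKeap1-2 (0.242). Its 6 probe sets did not share a sign, and the mean over them gave 0.06 with siKeap1-1 (adjusted p = 0.649), so the direction rested on the brightest of them. That call was also lost without any of siKeap1-1 replicates 1, 4, 5, 6 and 7 or siControl replicates 1, 5, 7 and 8 (adjusted p up to 0.0816). Crtc2, a coactivator of Creb1, and Foxo1, a forkhead factor held back by insulin, differed by -0.09 to -0.04 and did not pass the test. The dimmer Foxo1 probe sets did not share a sign. One differed by -0.29 with both siRNAs (limma p adjusted over all probe sets 0.0608 and 0.0766) and another by 0.08 and 0.22 (0.607 and 0.116).

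The genes differed widely in how far mice of the same group lay apart. The residual SD, which is the spread left after the 3 group means, was 0.815 for Ppp1r3g, above that of 99.4% of all genes, and was 0.646 for Ppp1r3b, 0.514 for Ppp1r3c, 0.504 for G6pc and 0.386 for Pklr. At the other end Pgk1 (0.0604), Fbp1 (0.0657) and Pdha1 (0.0776) were among the steadiest genes of the array. These 3 are bright, with mean log2 signals of 13.32, 14.41 and 12.67, while Ppp1r3g was at 6.75 and the median of all signals was 5.88. The part of signal level in these ranks was not tested. In all, 5 of the 35 genes (14.3%) were above the 90th percentile of all genes and 9 (25.7%) below the 10th. The first component of the residuals, computed from genes outside the carbohydrate lists, held 19.6% of the residual variance and took up part of this spread for some genes. With it as a covariate the residual SD of Ppp1r3b was 0.328, that of Pklr 0.209 and that of Gbe1 0.182 (against 0.343 without it). The median over the 35 genes was 0.133 with the component and 0.171 without it, and over all genes it was 0.176 and 0.185. With the component in the fit, siKeap1-1 gave 6 higher and 11 lower of the 35 (13.5% of all genes called) and siKeap1-2 gave 5 higher and 2 lower (10.1%). Pklr, Gckr and Ppp1r3c then had a limma adjusted p under 0.05 with both siRNAs, Pklr at 0.00766 and 0.0156. The component was taken after the group means were removed, so it leaves each log2 difference unchanged. It alters only the residual SD, and the added calls are therefore not independent support for a difference. What the component stands for was not tested.

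**Figure D4:**
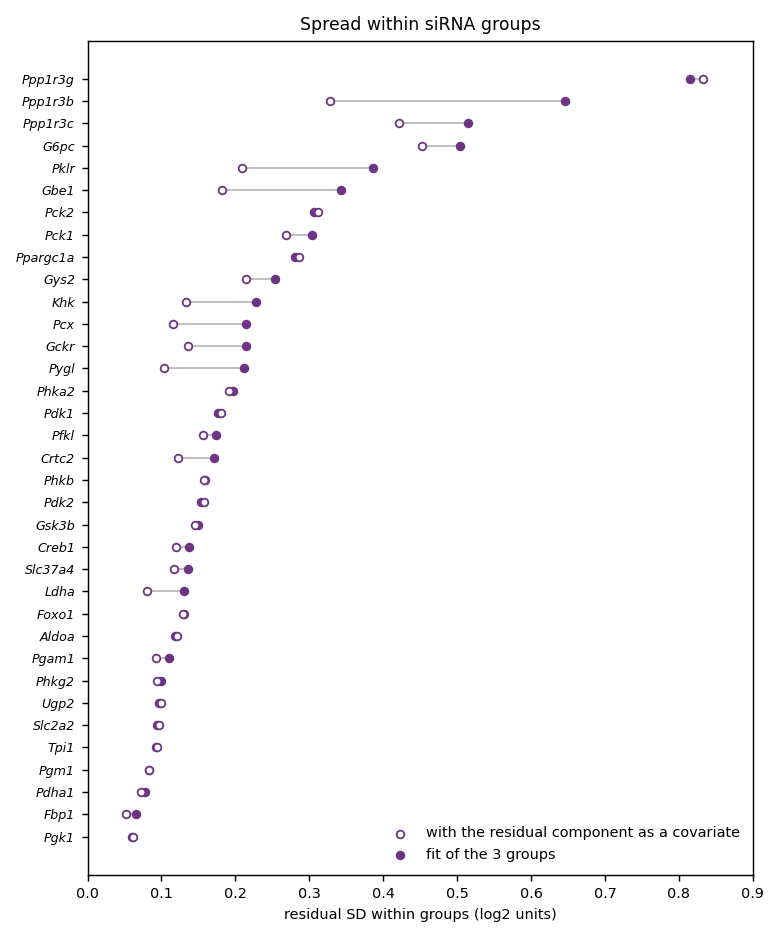
Residual SD within groups in log2 units (horizontal axis) of the 35 genes, over 24 arrays, from the fit without (filled points) and with (open points) the first residual component. The longest shifts are those of Ppp1r3b (0.328 with and 0.646 without the component), Pklr (0.209 and 0.386) and Gbe1 (0.182 and 0.343), and Ppp1r3g stays at the top.

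Between siKeap1-1 and siKeap1-2, 0 of the 35 genes passed the limma test, where 0.258% of all genes did. Without adjustment (p under 0.05), 3 were higher and 2 lower with siKeap1-1, where this threshold took in 9.29% of all genes. Phkb came closest, 0.34 ± 0.08 higher with siKeap1-1 than with siKeap1-2 (adjusted p = 0.0805), and its siKeap1-1 and siKeap1-2 arrays did not overlap, as was the case, in either direction, for 0.214% of all genes. Phkb was called with array weights in the fit (adjusted p = 0.0443) and with only these groups in it (0.0342). For Gbe1 the difference between the siRNAs was 0.33 (95% interval 0.00 to 0.66), for Gys2 -0.24 (-0.49 to 0.01) and for Ppargc1a -0.20 (-0.47 to 0.08). The genes called with siKeap1-1 and not with siKeap1-2 were therefore not shown to differ between the siRNAs.

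Further genes of carbohydrate handling were read from a list of 73, of which 64 were measured. With siKeap1-1, 1 of the 64 rose and 3 fell (6.25%, against 9.81% of all genes called), and with siKeap1-2, 1 rose and 5 fell (9.38%, against 6.99% of all genes). Pfkfb2, which makes and removes the glycolytic activator fructose 2,6-bisphosphate, was at 8.30 to 8.93 with siKeap1-1 and at 8.21 to 9.0 with siKeap1-2, against 9.0 to 9.45 with siControl. It fell by 0.59 with siKeap1-1 and by 0.64 with siKeap1-2 (adjusted p = 0.000637 and 0.000371). Against siControl replicates 1 to 3 alone, none of the further genes was called with either siRNA. The calls of Pfkfb2 and of the genes named below were therefore lost there. That subset holds fewer arrays, so a lost call is not by itself a smaller difference. With the ribosomal RNA signal as a covariate, none was called with siKeap1-2, and 1 was called lower with siKeap1-1. The other Pfkfb2 probe sets were dim, with means of 4.9 to 5.36, below the median of all signals at 5.88. They differed by -0.32 to 0.09 with siKeap1-1 and by -0.13 to 0.07 with siKeap1-2, and none passed the test. The fall of Pfkfb2 therefore rested on its brightest probe set. Mlxipl, the glucose-sensing factor ChREBP that drives Pklr, was at 11.90 to 12.52 with siKeap1-1 and at 12.04 to 12.61 with siKeap1-2, against 12.26 to 13.02 with siControl, and fell by 0.50 and 0.37 (adjusted p = 0.00493 and 0.0466).

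Phka1, the muscle alpha subunit of phosphorylase kinase, was at 7.80 to 8.23 with siKeap1-1 and at 7.63 to 8.02 with siKeap1-2, against 8.01 to 8.38 with siControl. Its differences were -0.16 (adjusted p = 0.182) and -0.36 (adjusted p = 0.00292), the opposite sign to those of Phkb, the beta subunit, in the same arrays. A dimmer Phka1 probe set differed by -0.52 and -0.51 (limma p adjusted over all probe sets 0.000856 and 0.00168). The dimmest differed by -0.16 and -0.45, so the size with siKeap1-1 rested on the probe set chosen. The other called genes were Crtc3, a coactivator of Creb1 (0.42, adjusted p = 0.0469), and the liver factor Cebpa (-0.16, 0.0296) with siKeap1-1. A second Crtc3 probe set of like brightness differed by -0.19 and -0.24, so the direction for Crtc3 rested on the probe set chosen. With siKeap1-2 they were the phosphofructokinase Pfkm (0.32, adjusted p = 0.0192), Pdp2, which switches pyruvate dehydrogenase on (-0.41, 0.0192), and Pdhx, a structural part of that complex (-0.36, 0.0209).

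**Figure D5:**
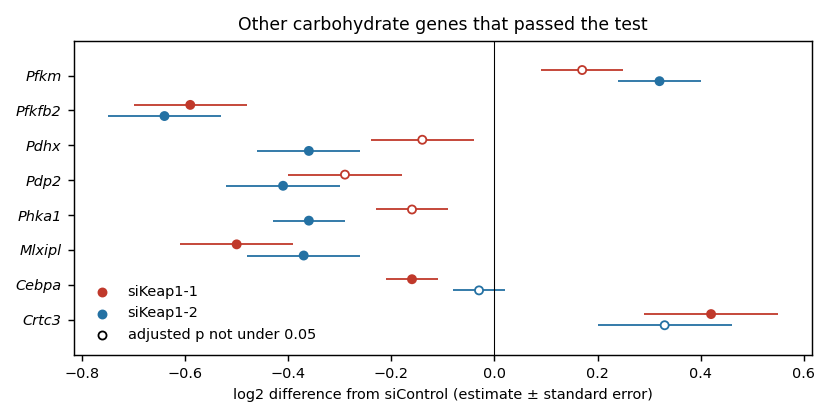
Log2 difference from siControl (horizontal axis) of the 8 further carbohydrate genes that passed the test in a comparison, for siKeap1-1 (red) and siKeap1-2 (blue), 8 arrays a group; points are estimates, bars standard errors, and filled points have an adjusted p under 0.05. Pfkfb2 and Mlxipl are filled and below 0 with both siRNAs. The fit used all siControl arrays, and no call held against siControl replicates 1 to 3 alone.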

How the data were processed

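Liver RNA of 24 mice was hybridised to Affymetrix mouse whole genome arrays, 1 array per mouse. The deposited values are log2 signals per probe set, which the authors made with RMA (background correction, quantile normalization and summary over probes), with no version given in the sources used here. RMA forces a like distribution on every array, so that differences are relative to the other genes. The array medians lay between 5.84 and 5.96. Array data hold no read depth, and 8 arrays per group limit the precision. The labels number the replicates but do not name a litter or batch. Of 45101 probe sets, 64 controls were left out. The brightest of the single-gene probe sets (34945 in all) by its mean over the 24 arrays stood for each of 18193 genes, named through the GEO platform annotation, and no level of one gene was set against that of another.

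The 3 groups were fitted together with limma 3.58.1 (lmFit and eBayes) in R 4.3.3, with Benjamini-Hochberg adjustment over all genes and a threshold of 0.05. The study used an ANOVA with a second factor that it does not name for the arrays. Feeding state, which the methods balanced within each group, is not in the labels, so the siRNA was the only factor fitted. Keap1 and 18S were tested over all 12870 splits of 8 against 8 arrays. The fit was tested on simulated data with known changes. Promoters were searched in Python 3.11.15. Alternatives were other normalizations, probe set rules, moderation, covariates, thresholds, subsets of controls and single arrays left out.

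Values were given for genes called in a comparison, for the 6 other members with the largest residual SD and for those with a log2 difference over 0.5, and for at most 8 called genes of the further list. The members and lists were chosen with earlier results of these data known.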

Additional observations from a re-analysis of the deposited data

Results flagged for a closer look

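In 8 of 135 sets of 8 arrays (45 genes in 3 groups), the highest or lowest array stood apart from the others by Dixon's criterion, which chance alone meets in about 1 of 20 sets. Among the siKeap1-1 arrays, Pck1 was at 12.51 on replicate 1 (13.59 to 13.95 on the others), Ppp1r3c at 9.98 on replicate 7 (11.09 to 11.80), Pgk1 at 13.20 on replicate 3 (13.32 to 13.39) and Pdhx at 8.80 on replicate 2 (9.12 to 9.41). Among the siKeap1-2 arrays, replicate 4 was apart at 13.49 for Pgk1 (13.26 to 13.35) and at 9.49 for Creb1 (9.04 to 9.26). Among the siControl arrays, G6pc was at 11.27 on replicate 4 (12.40 to 13.04) and Pck2 at 8.97 on replicate 2 (9.47 to 9.87).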

How the results depend on the processing

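The alternatives turned the sign of 1 called difference, that of Creb1 with siKeap1-1, which was 0.06 as the mean over its probe sets. Keap1 kept its sign and its call in every fit (-2.50 to -1.27 with siKeap1-1 and -1.72 to -0.90 with siKeap1-2). Of the 35 members, the counts are given as higher and lower. When each array was left out in turn, siKeap1-1 gave 4 to 5 higher and 2 to 6 lower, siKeap1-2 gave 1 to 4 higher and 0 to 1 lower, and 0 to 1 were higher and 0 lower between the siRNAs. The siKeap1-1 count of lower genes was 2 or 3 without siKeap1-1 replicate 1, 3 or 5 or siControl replicate 3, 7 or 8. The siKeap1-2 count of higher genes was 1 without siKeap1-2 replicate 5 or siControl replicate 1. In a fit of only the groups compared, 3 genes were lower with siKeap1-1, 1 was higher with siKeap1-2 and 1 was higher between the siRNAs. With robust moderation 1 gene was lower with siKeap1-2, and with array weights 1 was higher between the siRNAs. The 18S covariate left 2 lower with siKeap1-1 and, for siKeap1-2, 0 higher and 1 lower. With siControl replicates 1 to 3 as controls, siKeap1-1 gave 3 higher and 1 lower; with replicates 4 to 8, siKeap1-1 gave 3 higher and siKeap1-2 gave 1 higher and 1 lower. With the residual component, which leaves the log2 differences unchanged, siKeap1-1 gave 11 lower and siKeap1-2 gave 5 higher and 2 lower. At a fold change over 2 with an unmoderated p under 0.01, 0 of the 35 were called in either direction with either siRNA. The cause of these shifts was not tested.

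The alternatives for the 64 further genes were chosen after seeing the data. With siKeap1-1, quantile normalization, robust moderation, siControl replicates 4 to 8 as controls and the residual component each gave 2 higher, and the mean over probe sets, the fit of only the groups compared, siControl replicates 1 to 3 as controls and the fold change rule each gave 0 higher. The siKeap1-1 counts of lower genes were 1 with the 18S covariate, 0 with siControl replicates 1 to 3 and with the fold change rule, and 5 with the component. With siKeap1-2, 3 were higher under quantile normalization and array weights, 2 in the fit of only the groups compared and with the component, and 0 with the 18S covariate, siControl replicates 1 to 3 and the fold change rule. The siKeap1-2 counts of lower genes were 0 under those last 3 settings and 8 with the component.

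The correlations of 24 same-numbered pairs of arrays ran between -0.227 and 0.346, and 12 were over 0.1. They were not set beside pairs with unlike numbers, so they cannot tell whether the replicate numbers pair the arrays. With the replicate number as a block, siKeap1-1 gave 4 members higher and 3 lower, siKeap1-2 gave 3 higher and 0 lower, and 0 of the further genes were higher with siKeap1-1.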
